A study of Mus musculus with 15 samples.

Results

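The glucose output and glycogen genes of mouse liver were followed here through ribosome profiling, which counts the mRNA fragments that translating ribosomes shield from nuclease. The 9 genes were chosen by name for their place in hepatic glucose release or storage: Pck1, G6pc, Fbp1, Gys2, Pygl, Ppp1r3b, Ppp1r3c, Slc2a2 and Ppargc1a. Earlier results of these data were known when they were chosen. Every RefSeq transcript of these symbols was taken, which gave 9 transcripts, 1 for each gene, of the 28167 transcripts counted in every library. All 9 passed the filter on low counts, and none had the same counts as another transcript. Livers came from male wild-type C57BL/6N mice of 8 to 10 weeks, kept in 12 h light and 12 h dark for 2 weeks and then moved to constant darkness for 24 h. Whole liver was taken every 4 h from CT0 to CT24, from 2 mice at each time, which gave 14 libraries. Circadian time 0 (CT0) is subjective dawn and CT12 is subjective dusk. No library comes from a mutant, a treated animal or a light-dark cycle, so every comparison is between times of day.

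Between meals the liver exports glucose, first from glycogen and then by gluconeogenesis from lactate, glycerol and amino acids. After a meal it takes glucose up and stores it as glycogen. Release and storage use different enzymes at the same steps, so their relative abundance matters as well as their levels. Mice eat mainly at night, and the liver clock and the feeding rhythm are both known to drive many genes of these pathways.

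The total count ranged from 40593197 to 90458783 per library, and the TMM factors, which correct these totals for the share taken by the most abundant transcripts, ranged from 0.736 to 1.46. Levels are given as CPM, the reads of a transcript per 1000000 reads of the library after that correction. Summed markers of hepatocytes (Alb, Ttr, Apoa1, Serpina1c, Cps1 and Tdo2) ranged from 33450 to 47060 CPM. Of the other tissues that express some of the 9 genes, kidney markers summed to at most 0.0759 CPM and pancreatic islet markers to at most 0.184 CPM. Small intestine markers summed to between 39.0 and 65.4 CPM, with reads of Apoa4 and Fabp2 in all 14 libraries. Of the same list Vil1 had 27 reads in total and Lct 2, and the part of this tissue in the results was not tested. Kidney Slc12a1 and Kap, islet Gcg and Iapp, and intestinal Sis and Alpi were at 0 in all 14 libraries. Pancreatic acinar markers stood at 3285 CPM in CT20 replicate 2 and between 2.55 and 66.6 CPM in the other libraries, and all nonzero counts of CT16 replicate 2 were even numbers. Division of the latter by 2 changed no count of rhythmic genes below, and results that turn on either library are given without it. In whole tissue, fewer cells of a type and less RNA per cell cannot be told apart.

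Ribosome binding followed a 24 h rhythm for 6 of the 9 genes, in a fit over all transcripts in which 11.3% of 17299 did (edgeR quasi-likelihood F test of cosine and sine, Benjamini-Hochberg adjusted p under 0.05). The median log2 peak-to-trough of the 9 fitted cosines was 1.66, beside 0.44 over all transcripts tested. The peaks of 4, Pck1, Ppargc1a, Slc2a2 and Gys2, fell between CT9 and CT15, beside 29.8% of the peaks of all rhythmic transcripts. Ppp1r3b peaked near CT20 and Ppp1r3c near CT0. G6pc, Fbp1 and Pygl did not pass. By role, 2 of the 5 release genes, the glucose transporter and all 3 storage genes were called rhythmic.

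**Figure D1:**
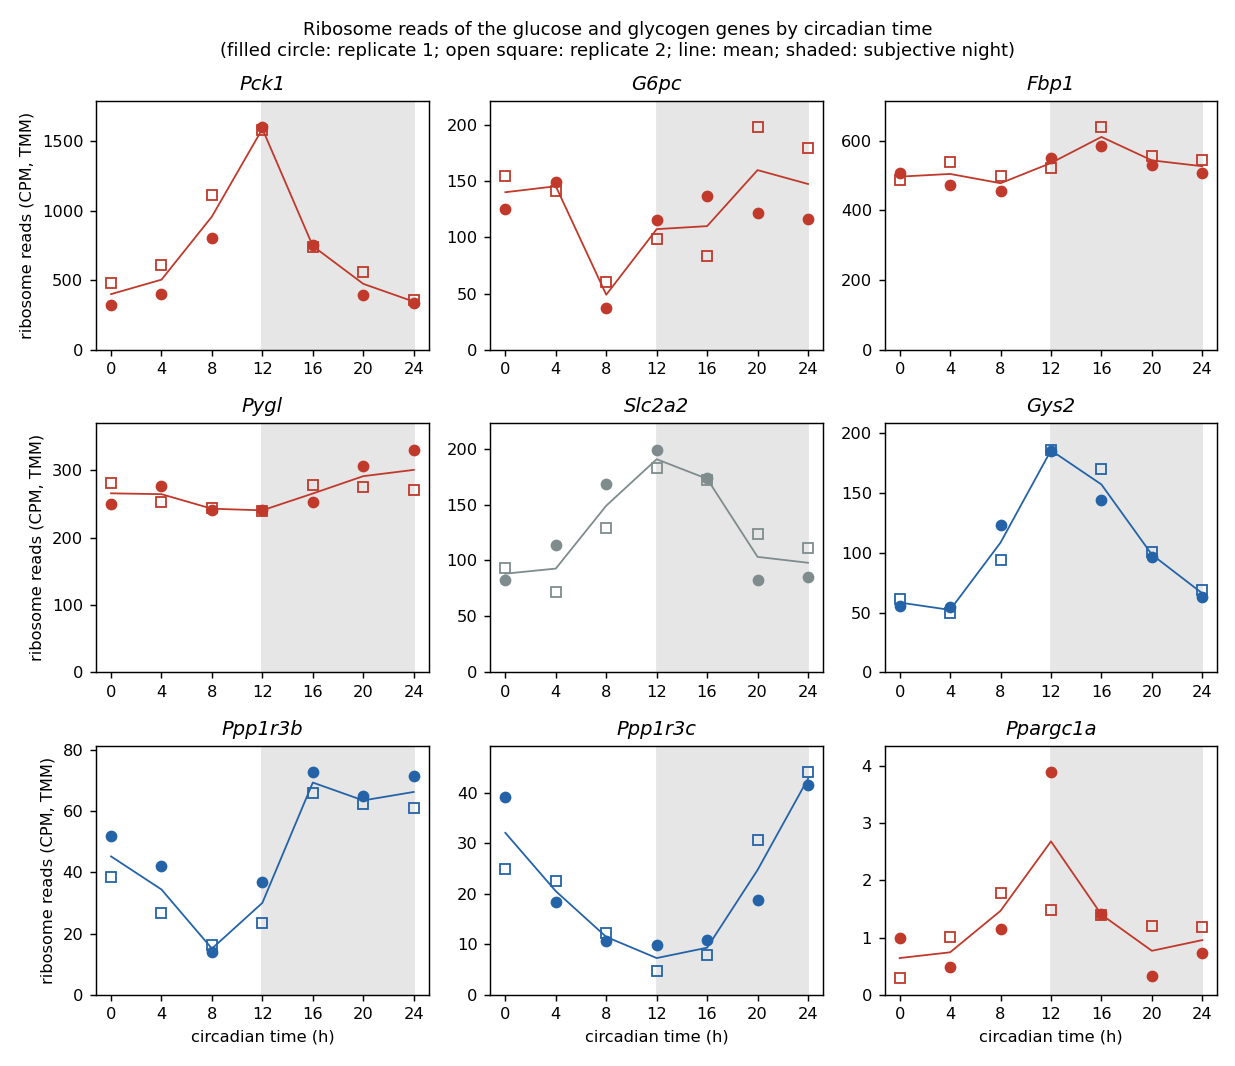
Ribosome reads of each gene in CPM, TMM scaled, against circadian time in hours, with a point for each of the 14 libraries and a line through the mean of 2 mice. Pck1 rose to 1591 CPM at CT12, Ppp1r3c was lowest at CT12 with 7.28 CPM, and Fbp1 stayed between 457 and 638 CPM in every library.

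Pck1 encodes the cytosolic phosphoenolpyruvate carboxykinase, which commits oxaloacetate to gluconeogenesis, and its gene lies at chr2:173153073-173159274 (GRCm38, plus strand, 10 exons). Its ribosome reads were 322 and 479 CPM in the 2 mice of CT0, 400 and 610 at CT4, 802 and 1117 at CT8, 1600.5 and 1581 at CT12, 757 and 736 at CT16, 391 and 558 at CT20, and 337 and 357 at CT24. Both CT12 mice were above every other library, and the next highest was a CT8 mouse. The mean at CT12, 1591 ± 13.9 CPM (SD, n = 2), was 4.59 times the mean at CT24, 347 ± 13.9 CPM. The fitted peak was at CT 11.5 ± 0.478 h (SE) with a log2 peak-to-trough of 1.92 (edgeR adjusted p = 3.16e-06, n = 14 libraries).

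G6pc encodes the catalytic subunit of glucose-6-phosphatase, the last step of both glycogen breakdown and gluconeogenesis, at chr11:101367716-101377903 (plus strand, 5 exons). Its pattern was a dip more than a wave. The mice had 126 and 155 CPM at CT0, 150 and 142 at CT4, 37.5 and 60.6 at CT8, 116 and 98.9 at CT12, 136 and 83.7 at CT16, 122 and 198 at CT20, and 116 and 179 at CT24. Both CT8 mice lay below all other libraries, which ranged from 83.7 to 198 CPM. The cosine did not pass (edgeR adjusted p = 0.0641, log2 peak-to-trough 1.07), whereas the edgeR test for any difference among the 7 times did (adjusted p = 0.0137, with 7.08% of all transcripts called). The highest value came from CT20 replicate 2, the library with acinar markers, and without it the adjusted p of the cosine was 0.124. Without CT12 replicate 1 it was 0.0393, with no filter on low counts 0.0036 and with scaling to the total count 0.0143, and JTK, a rank test for 24 h rhythms, on CPM of the total count gave an adjusted P of 0.0128.

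Fbp1, fructose-1,6-bisphosphatase of gluconeogenesis (chr13:62864753-62888282, minus strand, 7 exons), and Pygl, the liver glycogen phosphorylase that opens glycogen breakdown (chr12:70190815-70227683, minus strand, 20 exons), were the flattest of the 9. Fbp1 ranged from 457 to 638 CPM with a median of 526, and its highest mean, 611 ± 38.3 CPM at CT16, was 1.28 times its lowest, 478 ± 30.2 CPM at CT8. Pygl ranged from 240 to 330 CPM with a median of 262, and its means at CT24 and CT12 differed 1.25-fold. Neither cosine passed (edgeR adjusted p = 0.205 and 0.193, log2 peak-to-trough 0.28 for each). By JTK on CPM of the total count Pygl passed (adjusted P = 0.0126) and Fbp1 did not (0.235). The CT16 mice stood above all other libraries for Fbp1, and the CT12 mice below all others for Pygl.

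Ppargc1a encodes the coactivator PGC-1α, known to raise transcription of gluconeogenic genes in fasting, and the counted transcript spans chr5:51454249-51553921 (minus strand, 13 exons). It was the rarest of the 9, with a mean of 79.4 counts per library. Its mice had 0.995 and 0.29 CPM at CT0, 0.48 and 1.01 at CT4, 1.15 and 1.79 at CT8, 3.89 and 1.48 at CT12, 1.41 and 1.39 at CT16, 0.335 and 1.20 at CT20, and 0.734 and 1.18 at CT24. The pair at CT12 differed widely, and its lower mouse was below a CT8 mouse. The cosine passed narrowly (edgeR adjusted p = 0.0397, peak at CT 12.0 ± 1.37 h, log2 peak-to-trough 1.66). The call was lost without any of 7 of the 14 libraries: CT0 replicate 2 (adjusted p = 0.0753), CT4 replicate 1 (0.056) or 2 (0.055), CT8 replicate 2 (0.0645), CT12 replicate 1 (0.269), CT16 replicate 2 (0.0561) and CT24 replicate 1 (0.0665). It was also lost with total-count scaling (0.139) and with CT16 replicate 2 and CT20 replicate 2 both left out (0.0565), and by JTK q, its P on TMM CPM adjusted over all transcripts (0.128), and by JTK on CPM of the total count (0.525). The edgeR test for any difference among the 7 times did not pass (adjusted p = 0.243).

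Slc2a2 encodes GLUT2, the glucose transporter of the hepatocyte membrane that carries glucose in either direction, at chr3:28697903-28728361 (plus strand, 11 exons). It had 82.7 and 93.7 CPM at CT0, 114 and 71.7 at CT4, 169 and 129 at CT8, 199 and 182 at CT12, 174 and 172 at CT16, 82.6 and 124 at CT20, and 85.0 and 111 at CT24. The CT12 mice were above all other libraries, and the CT8, CT12 and CT16 mice were all above those of CT0, CT4, CT20 and CT24. The peak was fitted at CT 12.7 ± 0.685 h with a log2 peak-to-trough of 1.13 (edgeR adjusted p = 2.65e-04). Fitted apart, the peak was at CT 11.3 in the 7 libraries of replicate 1 and at CT 14.5 in those of replicate 2. Scaled to the total count, in place of TMM, it did not pass (adjusted p = 0.105, log2 peak-to-trough 0.81), nor by JTK q (0.0726) or JTK on CPM of the total count (0.0767).

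Gys2 encodes the liver glycogen synthase, which lengthens the glucose chains, at chr6:142422613-142473109 (minus strand, 17 exons). Its reads were 55.6 and 61.2 CPM at CT0, 54.8 and 49.6 at CT4, 123 and 93.8 at CT8, 185 and 186 at CT12, 144 and 170 at CT16, 96.5 and 100.5 at CT20, and 63.4 and 68.7 at CT24. The mice of CT12 were above and those of CT4 below every other library, 186 ± 0.422 against 52.2 ± 3.73 CPM (SD, n = 2), a 3.56-fold difference. Of the 9 genes Gys2 had the smallest adjusted p and the most closely set peak, CT 13.9 ± 0.295 h (edgeR adjusted p = 2.66e-07, log2 peak-to-trough 1.78). By replicate its peak was at CT 13.3 and CT 14.4.

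Ppp1r3b and Ppp1r3c encode glycogen-targeting subunits of protein phosphatase 1, which bring the phosphatase to the glycogen particle, where it activates glycogen synthase and inactivates phosphorylase. Ppp1r3b (chr8:35375759-35388139, plus strand, 2 exons) had 51.9 and 38.5 CPM at CT0, 42.1 and 26.7 at CT4, 13.9 and 16.3 at CT8, 36.7 and 23.3 at CT12, 72.6 and 66.1 at CT16, 64.8 and 62.2 at CT20, and 71.6 and 60.9 at CT24. The CT8 mice were below all others, and the CT16, CT20 and CT24 mice were above all others. Its peak was at CT 19.9 ± 0.554 h with a log2 peak-to-trough of 2.00 (edgeR adjusted p = 2.90e-04). By JTK q it did not pass (0.0811).

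Ppp1r3c (chr19:36731731-36736604, minus strand, 2 exons) had 39.3 and 24.9 CPM at CT0, 18.5 and 22.6 at CT4, 10.8 and 12.2 at CT8, 9.93 and 4.63 at CT12, 10.8 and 7.89 at CT16, 18.7 and 30.8 at CT20, and 41.6 and 44.1 at CT24. The CT24 mice were above every other library, and the 6 mice of CT8, CT12 and CT16 were below all 8 others. Its fitted peak, CT 0.029 ± 0.502 h, was at subjective dawn, and its log2 peak-to-trough of 2.36 was the largest of the 9 (edgeR adjusted p = 7.20e-06). The targeting subunits were at their lowest level at CT8 (Ppp1r3b) and CT12 (Ppp1r3c), times at which Gys2 stood at 109 ± 20.9 and 186 ± 0.422 CPM.

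Per nucleotide of coding sequence, Gys2 and Ppp1r3c changed places over the day. The ratio of Gys2 to Ppp1r3c CDS reads per nucleotide was 0.635 at CT24 and 0.793 at CT0, and 11.4 at CT12. That of Ppp1r3b to Ppp1r3c was between 1.42 and 1.76 at CT0, CT4, CT8 and CT24, and rose to 4.64 at CT12 and 7.99 at CT16. These ratios were chosen after the values had been seen and are given without a test.

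**Figure D2:**
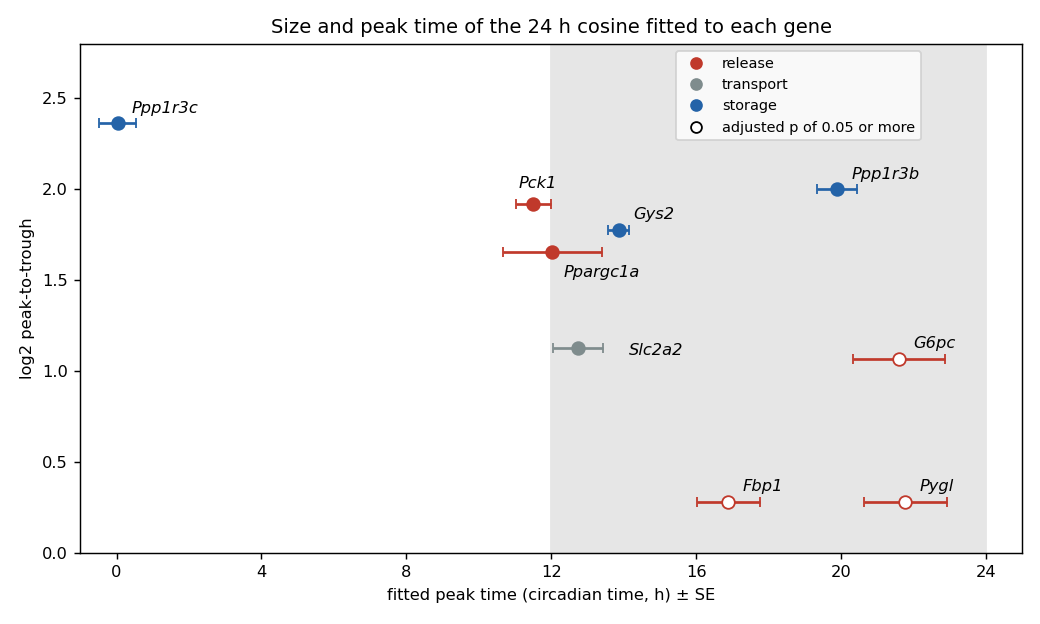
Fitted peak time in circadian hours, with its SE, against the log2 peak-to-trough of the 24 h cosine for each gene, coloured by role and open where the adjusted p was 0.05 or more. Pck1, Ppargc1a, Slc2a2 and Gys2 lie between 11.5 and 13.9 h, apart from Ppp1r3b at 19.9 h and Ppp1r3c at 0.029 h.

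The levels of different genes were compared per length, as CDS RPKM (CPM per kilobase of coding sequence). Mean levels over the 14 libraries were 477 for Fbp1, 356 for Pck1, 103.3 for G6pc, 103.1 for Pygl, 78.6 for Slc2a2, 50.6 for Ppp1r3b, 44.2 for Gys2, 21.5 for Ppp1r3c and 0.504 for Ppargc1a. Among neighbours in this order, Pck1 was above G6pc and Ppp1r3c above Ppargc1a in all 14 libraries. G6pc was above Pygl in 8 libraries, Ppp1r3b above Gys2 in 9 and Fbp1 above Pck1 in 11, so the order of these neighbours was not the same in every library.

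Subjective dusk was then set against subjective dawn, CT12 against the mean of CT0 and CT24, at which the liver of a nocturnal animal stands before and after its active phase. Of the 9 genes 6 differed, 4 higher and 2 lower at CT12, in an edgeR fit of 7 times in which 7.75% of all transcripts differed, 3.79% higher and 3.95% lower. Pck1 was 4.27-fold higher (log2 2.09 ± 0.19 SE, adjusted p = 1.55e-06), above both dawns in 2 of 2 mice. Gys2 was 2.99-fold higher (log2 1.58 ± 0.14, adjusted p = 7.46e-07). Slc2a2 was 2.05-fold higher (log2 1.04 ± 0.19, adjusted p = 0.00232). Ppargc1a was 3.43-fold higher (log2 1.78 ± 0.52, adjusted p = 0.0464), a call kept only without CT0 replicate 1, CT12 replicate 2 or either CT20 library, and lost without any of the 10 others (log2 0.91, adjusted p = 0.600 without CT12 replicate 1). It was also lost with CT0 alone (0.0693) or CT24 alone (0.257) as dawn and with total-count scaling (0.0786). The genes higher at dusk included those of release (Pck1, Ppargc1a) and of storage (Gys2).

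The genes lower at dusk were the phosphatase subunits. Ppp1r3c was 5.07-fold lower at CT12 than at dawn (log2 -2.34 ± 0.30, edgeR adjusted p = 6.17e-05), and the log2 difference was -3.0 without CT12 replicate 1 and -1.89 without CT12 replicate 2. Ppp1r3b was 1.82-fold lower (log2 -0.86 ± 0.21, adjusted p = 0.0168), and this call was lost without CT0 replicate 1 (0.0661), CT12 replicate 2 (0.173) or CT24 replicate 1 (0.0517), and with CT0 alone as dawn (log2 -0.59, 0.154). G6pc (log2 -0.42 ± 0.25, adjusted p = 0.351), Pygl (-0.23 ± 0.13, 0.339) and Fbp1 (0.07 ± 0.12, 0.812) did not pass. Scaled to total counts, the median of all transcripts moved to -0.58, and 136 of 3677 called transcripts were higher at CT12, beside 656 of 1340 with TMM. Slc2a2 then had a log2 difference of 0.47 (adjusted p = 0.212), which was 1.05 relative to that median, and Fbp1 turned to -0.51, which was 0.07 relative to it. G6pc (-0.98, adjusted p = 0.0272) and Pygl (-0.81, 0.0231) then passed as lower at dusk, at -0.40 and -0.23 relative to the median.

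**Figure D3:**
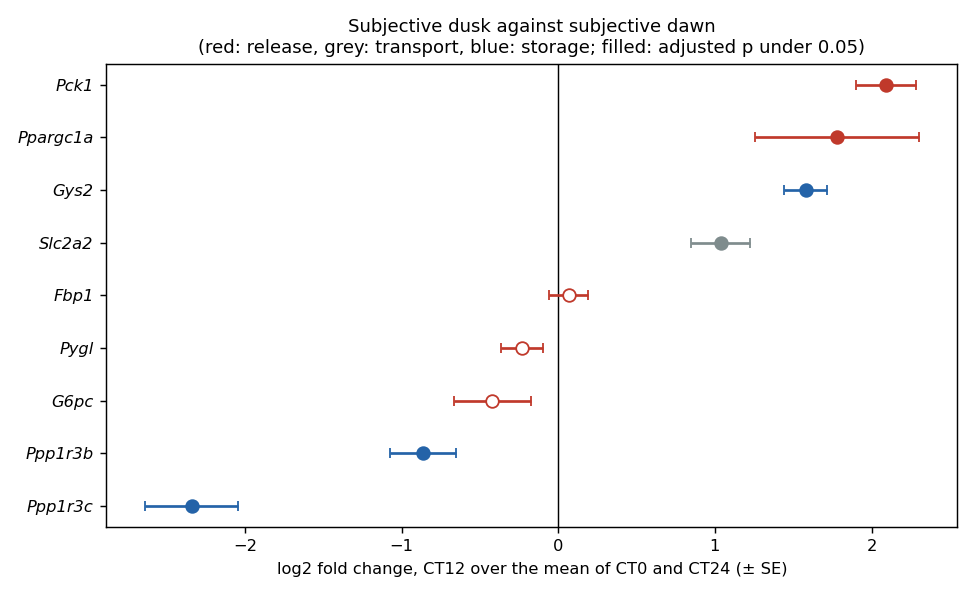
Log2 fold change of ribosome reads at CT12 over the mean of CT0 and CT24, with SE from the edgeR fit, for each gene, filled where the adjusted p was under 0.05. Pck1 is farthest to the right at 2.09 and Ppp1r3c farthest to the left at -2.34, with Fbp1, Pygl and G6pc open and nearest to 0.

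The same circadian time a day apart was also compared, with the pair titled CT24, whose time label reads CT00. Between CT24 and CT0, 0 of the 9 genes differed in the edgeR fit, in which 0% of all transcripts were called. At an unadjusted p under 0.05 there was 1 of the 9, Ppp1r3b, with 5.05% of all transcripts, and DESeq2 called 0 of the 9 after adjustment. The log2 differences ran from -0.21 for Pck1 to 0.58 for Ppargc1a. For Ppp1r3b it was 0.55 ± 0.23 (adjusted p = 0.957), beside its dusk difference of -0.86.

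The balance of ribosome reads between opposing enzymes was measured within each library, where it does not depend on scaling. Amounts of the enzymes were not measured, and the paper found ribosome reads poorly correlated with protein for the circadian proteins it quantified. For each of 4 steps at which different enzymes run the storage or glycolytic direction and the release direction, the log2 ratio of CDS reads per nucleotide was fitted with a 24 h cosine and tested by 100000 shuffles of the time labels (a permutation test, Benjamini-Hochberg over the 4 pairs). The ratio was rhythmic for 3 of the 4 pairs, which are described here. These ratios use the same reads as the fits of single genes and are not independent of them. Gys2 over Pygl, synthesis over breakdown of glycogen, was 0.213 at CT4 and 0.855 at CT12, a 4.01-fold change, with both CT12 libraries above all others. Its log2 peak-to-trough was 1.95 ± 0.14 (SE) and its peak at CT 13.4 ± 0.305 h (permutation p = 1e-05, the smallest these shuffles can give, adjusted 4e-05).

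Pklr over Pck1, pyruvate kinase against the enzyme that bypasses it, ran the other way. The ratio was 0.0573 at CT12 and 0.273 at CT24, 4.76-fold apart, with a peak at CT 22.3 ± 0.619 h and a log2 peak-to-trough of 2.34 ± 0.35 (permutation test, adjusted p = 4.8e-04). Pklr itself had a small rhythm that peaked at CT 19.2 (edgeR adjusted p = 0.0448, log2 peak-to-trough 0.79). Pfkl over Fbp1, liver phosphofructokinase against fructose bisphosphatase, was 1.70-fold higher at CT0 than at CT8, with a log2 peak-to-trough of 0.70 ± 0.12 (permutation test, adjusted p = 0.0024). Pfkl reads per nucleotide were below those of Fbp1 in all libraries. At CT12 the mean Gys2 over Pygl ratio was at its highest and the mean Pklr over Pck1 ratio at its lowest. The latter was close to its CT8 value, 0.0624, and its lowest single library was CT8 replicate 2 (log2 -4.38).

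**Figure D4:**
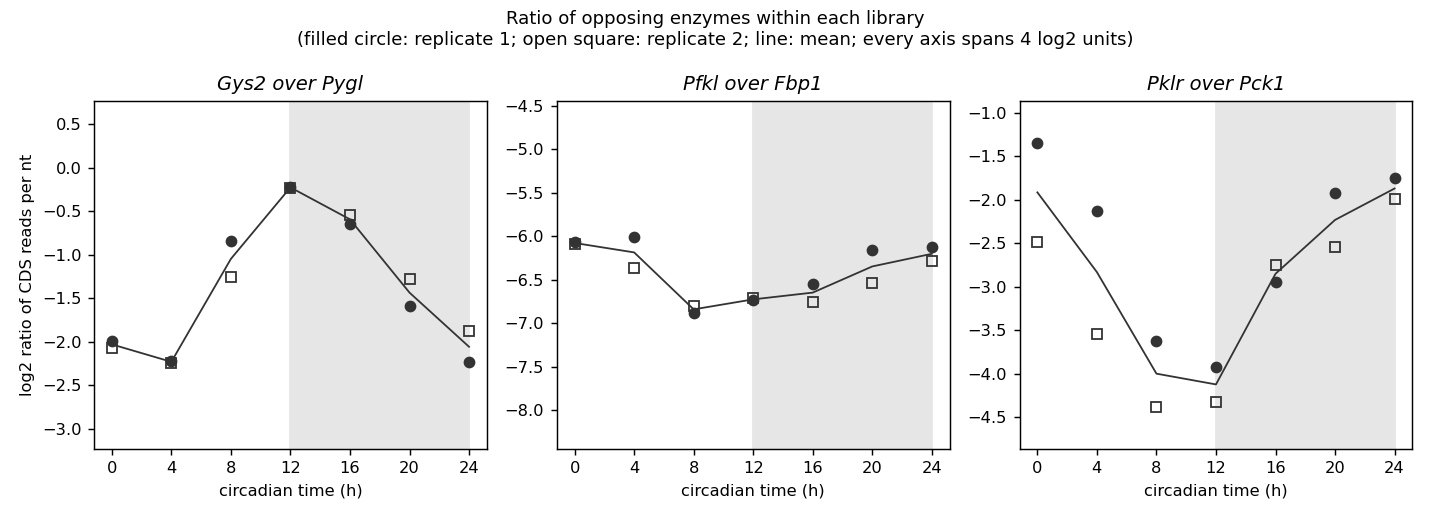
Log2 ratio of CDS reads per nucleotide of 3 pairs of opposing enzymes against circadian time in hours, with a point for each of the 14 libraries and a line through the mean of 2 mice, all panels spanning 4 log2 units. Gys2 over Pygl is highest at CT12 at -0.23 while Pklr over Pck1 is lowest there at -4.13.

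The other genes of the same pathways were read from lists, chosen with earlier results of these data known, of 80 genes without the 9. Of these 75 were tested, and 23 (30.7%) had a 24 h rhythm, beside 11.2% when each gene of the files was read by its most-read transcript. The number called was 10 with total-count scaling, 14 by JTK on CPM of the total count and 5 by JTK q. At dusk 10 of the 75 were higher and 2 lower, beside 3.79% and 3.95% of all transcripts. Of 23 tested glycogen genes 4 were called. Ugp2, which makes the UDP-glucose that glycogen synthase uses, peaked at CT 11.2 (edgeR adjusted p = 0.00245). Its mean was 80.9 ± 1.43 CPM at CT0, 180 ± 37.9 CPM at CT12 and 108 ± 31.5 CPM at CT24. Stbd1, a glycogen-binding protein, peaked at CT 12.8 (adjusted p = 0.0482) and Gbe1, the branching enzyme, at CT 17.0 (0.0235). At CT12 3 glycogen genes were higher than at dawn, among them Ugp2 and Stbd1, and 0 were lower. Other targeting subunits, Ppp1r3a, Ppp1r3d, Ppp1r3f and Ppp1r3g, had means below 10 counts and were not tested.

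Of 26 tested genes of glycolysis and gluconeogenesis 10 were called. Slc37a4, which carries glucose-6-phosphate to the glucose-6-phosphatase inside the endoplasmic reticulum, peaked at CT 14.9 (edgeR adjusted p = 8.59e-06) and rose from 45.5 ± 6.16 CPM at CT4 to 130 ± 3.61 CPM at CT16. Pfkfb3, which makes fructose-2,6-bisphosphate, the activator of phosphofructokinase, had the largest dusk difference of the lists, 8.55-fold (log2 3.10 ± 0.18, adjusted p = 7.66e-09), with 20.2 ± 1.29 CPM at CT12 and 2.04 ± 0.164 CPM at CT0. Its liver paralogue Pfkfb1 peaked at CT 19.1 (adjusted p = 1.45e-04), close to Pklr, Gpi1 at CT 18.4 (0.00808) and Pgk1 at CT 18.2 (0.0269). Of the 10 peaks 6 fell between CT15 and CT21, as did that of Ppp1r3b, beside 27.6% of the peaks of all rhythmic transcripts. Slc2a9 at CT 11.8 (0.0102) and Pfkl at CT 22.2 (0.013) were also called, and Got1, an aminotransferase, was not rhythmic but 1.50-fold higher at dusk (adjusted p = 0.048).

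Among 26 regulators of these pathways 9 were called. Foxo1 and Foxo3, transcription factors that insulin signalling holds out of the nucleus, peaked at CT 11.8 (edgeR adjusted p = 0.00843) and CT 12.2 (0.0234), and both were higher at dusk, 1.85-fold and 1.61-fold. Cebpb, a transcription factor that binds the Pck1 promoter, peaked at CT 13.2 (0.0143) and was 2.20-fold higher at dusk. Irs2, an adaptor of the insulin receptor, peaked at CT 23.4 (0.0195) and Irs1 was 2.17-fold higher at dawn (adjusted p = 0.00131). Pdk4, the kinase that shuts pyruvate dehydrogenase, was 4.97-fold higher at dawn (adjusted p = 0.011) and peaked at CT 22.6 (7.68e-04). Trib3 at CT 8.15 (4.44e-04), Ppargc1b at CT 8.81 (0.0494), Trib1 at CT 12.8 (0.0407) and Tat at CT 17.0 (0.0211) were the remaining calls. Crtc2, Creb1 and Hnf4a, other regulators of gluconeogenic genes, were tested and did not pass.

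The transcripts most like each of the 9 over the 14 libraries are given as a description, by Pearson r of log2 CPM among 8214 genes averaging 100 counts or more. Pck1 was most like Slc38a2 (0.965), Gne (0.944) and Lpin2 (0.929). Gys2 was most like Tef (0.957), a PAR bZIP factor of the clock output, Upp2 (0.947) and Noct (0.939). Slc2a2 was close to Klf10 (0.953) and Tef (0.945). Ppp1r3b was most like Asl (0.93) and Sbno2 (0.914), and Ppp1r3c most like Cth (0.944), St3gal1 (0.933) and Mreg (0.921). Fbp1 was most like Ugt2b34 (0.946) and Hsph1 (0.909), and Ppargc1a most like Mga (0.956) and Fech (0.911). The best values were lower for G6pc, with Rhot2 (0.890), and for Pygl, with Srsf1 (0.795).

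Promoter sequences were read to set known elements beside these patterns, from 250 bases before to 50 after the start of each gene (RefSeq, GRCm38.p6). Sequences matched 7 of the 9 symbols, and for 6 of them, Pck1, G6pc, Fbp1, Pygl, Slc2a2 and Ppp1r3c, the start was that of the counted transcript. For Ppargc1a it lay 13804 bases away and was left out. Words of letters were searched on both strands, and the share of all 32851 promoters that hold each is given. The windows printed here, 5′ to 3′ on the strand of the gene, hold an element of the clock or of cAMP signalling in genes with a dawn peak, a dusk peak and a dip at CT8, with the element in capitals.
Ppp1r3c E-box: agggaccggttCACGTGatctggctttg
Ppp1r3c E′-box: cccgcggtgatCACGTTccaggggcagg
Pck1 CRE: cctgccccttaCGTCAgaggcgagcct
G6pc D-box: gttttgctattTTACGTAAatcaccctgaa
G6pc RORE: cagggctggatTGACCTAcagactgaatc

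The Ppp1r3c windows lie at chr19:36736692-36736719 and chr19:36736777-36736804 on the minus strand. The E-box, CACGTG, on which CLOCK and BMAL1 act, starts at base -104 from the gene start and is held by 7.15% of promoters, and the E′-box CACGTT at base -189 and is held by 4.68%. Of the 6 promoters Ppp1r3c alone held either word. The Pck1 window, chr2:173152972-173152998, holds the short cAMP response element TGACG on the opposite strand from base -90 to base -86, a word of 20.8% of promoters that was also in Pygl at base -44. The G6pc windows, chr11:101367543-101367572 and chr11:101367651-101367679, hold TTACGTAA (0.119% of promoters), the D-box word of PAR bZIP factors, and TAGGTCA on the opposite strand (2.61%), the core of the element bound by ROR and REV-ERB receptors. G6pc also held CAAAACA (6.28%), the word of insulin response elements, on the opposite strand from base -174. Slc2a2 and Fbp1 held none of the 10 words searched, which were these, TTATGTAA (0.938% of promoters), the full CRE TGACGTCA (1.79%), which contains TGACG, the forkhead word GTAAACA (3.65%) and AGAACA of the glucocorticoid element (19%). A word in a window is a description and was not tested as a site.

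The files count the 5′UTR, CDS and 3′UTR apart, so the place of the ribosomes on each transcript could be compared. Between 90.8% and 99.3% of the reads of each gene lay in the CDS and at most 1.16% in the 3′UTR. The 5′UTR held 9.0% of Gys2 reads, 8.92% of G6pc, 7.24% of Fbp1, 6.94% of Pck1 and 0.675% of Pygl reads. Per nucleotide, the 5′UTR of G6pc carried 1.58 times the reads of its CDS, above 1 in 13 of 14 libraries, and that of Pck1 0.994 times, whereas Fbp1 stood at 0.335 and Pygl at 0.175. Over the 7640 transcripts with an average of 10 or more counts for each of these regions the median was 0.637 and 28.9% were above 1. The 5′UTR of G6pc is 67 nt in the files and 81 nt in GRCm38.p6, and with the latter lengths its ratio was 1.30.

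The start codons of these transcripts are shown with 6 bases on their 5′ side and 3 on their 3′ side, the ATG in capitals, for the 2 highest of these ratios and for Fbp1 and Pygl, 2 deeply read genes with low ones.
G6pc: ggaaggATGgag
Pck1: gcaattATGcct
Fbp1: ccagcaATGgcg
Pygl: gcaaccATGgca

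These lie at chr11:101367791-101367802 (plus strand), chr2:173153383-173153394 (plus), chr13:62888038-62888049 (minus) and chr12:70227578-70227589 (minus), in GRCm38.p6. All 4 have a purine 3 bases before the ATG, as do 7 of the 9 genes, and Ppp1r3c and Ppargc1a do not. An upstream ATG stood in the 5′UTR of 4 of the 9, with 2 each in Gys2 and Ppargc1a and 1 each in Fbp1 and Slc2a2, and the frame of each closed before the main start codon. The ratio of 5′UTR to CDS reads per nucleotide was 0.318 to 0.686 in these 4 and 0.175 to 1.58 in the 5 without an upstream ATG, so the ranges overlapped and the highest ratios, of G6pc and Pck1, came without an upstream ATG.

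Of the 8 genes read deeply enough to test, all but Ppargc1a, 0 had a 24 h rhythm in 5′UTR reads relative to CDS reads (limma, adjusted p of at least 0.809). At an unadjusted p under 0.05 there was 0 of the 8, and over all 7640 transcripts 0% were called after adjustment and 4.93% before. The largest fitted log2 peak-to-trough was 0.88, for G6pc (adjusted p = 0.809). CDS reads alone gave the same number of rhythmic genes, 6 of 9, as reads of the whole transcript.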

How the data were processed

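Ribosome-protected fragments of mouse liver were deposited by the authors as raw counts per RefSeq transcript, separately for both UTRs and the CDS, with region lengths. Per the study's methods and the submitters' processing notes, livers were lysed with cycloheximide, adapters were clipped, rRNA reads removed with Bowtie2 2.1.0.0, the rest aligned to mm10 (GRCm38), exact matches kept with SAMtools 0.1.19.0, and reads of 26 to 32 nt assigned to an A site. The counting rule for reads common to overlapping transcripts is not given in the sources used here. A pair titled CT24 carries a time label of CT00, so the title decided. For CT16 replicate 2 a further run was not analysed here.

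The members and gene lists were chosen with earlier results of these data known. The members are all named, and of the lists those past the threshold and up to 3 others of the closest role. Some of these genes, and 1 of the 4 enzyme pairs, are counted but not reported here by name. Symbols were matched by accession to RefSeq (GRCm38.p6) for 27840 transcripts. Counts of the 3 regions were added, transcripts averaging under 10 counts were dropped, and the quasi-likelihood test of edgeR 4.0.16 (R 4.3.3) was run with TMM scaling, and p-values were adjusted over all of them. Peak SE came from least squares on log2 CPM. Ratios used a pseudocount of 0.5 and limma 3.58.1, or permutation. DESeq2 1.42.0 and JTK_CYCLE, written anew in Python 3.11.15 with tied times treated as ties, were alternatives. The tests were checked on simulated counts. Counts of reads are without molecular identifiers, so precision is limited by the 2 mice per time. Same-numbered replicates of different times did not deviate together (21 pairs of times, r from -0.0607 to 0.187, 3 over 0.1), so numbers do not pair mice.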

Additional observations from a re-analysis of the deposited data

How the results depend on the processing

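With 2 mice per time, single calls can rest on a library. Leaving out each library in turn gave 5 to 6 rhythmic genes of the 9, 4 to 6 that differed between dusk and dawn, 0 between CT24 and CT0, 0 with a rhythm of the 5′UTR ratio, 3 of 4 enzyme pairs, and 16 to 23 of the 75 pathway genes. Pck1, Gys2, Slc2a2 and Ppp1r3c passed the rhythm and the dusk tests in all 14 of these fits, and Gys2 over Pygl, Pfkl over Fbp1 and Pklr over Pck1 theirs.

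Other choices gave 3 to 8 rhythmic genes. With scaling to total counts the number that differed at dusk stayed at 6, with G6pc and Pygl in and Slc2a2 and Ppargc1a out. JTK with Benjamini-Hochberg q gave 3 of the 9 and 5 pathway genes, without Ppp1r3b, Slc2a2 and Ppargc1a, total-count scaling 5 and 10, and JTK on CPM of the total count 14 pathway genes. JTK on TMM CPM gave 8 of the 9, with Fbp1 and Pygl added at an adjusted P of 0.0211 each, a value for each transcript alone that called 2881 of all transcripts, and their q was 0.17. Scaled to total counts, the dusk difference of Fbp1 turned from 0.07 to -0.51 (adjusted p = 0.116). Taking CT0 alone as dawn gave 4 and CT24 alone 5 genes that differed from dusk, while Pck1, Gys2, Slc2a2 and Ppp1r3c differed by either. With CT16 replicate 2 and CT20 replicate 2 both left out, an alternative chosen after seeing the data, 5 of the 9 were rhythmic. Over all transcripts, the 1947 rhythmic ones became 594 by JTK q, 3049 by JTK on CPM of the total count, 1251 with 1 transcript per gene and 1225 by the test of 7 times, and the 1340 that differed at dusk became 621 with CT24 alone and 3677 with total-count scaling. The cause of these shifts was not tested. The replicate number, which does not pair the mice, as a block gave 6, 6, 0, 3 of 4, 0 and 23 for the same results in the order rhythm, dusk, CT24, pairs, 5′UTR ratio and pathway genes, and changed no count.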
